A study of Mus musculus with 15 samples.

Results

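Mitosis is built from a set of protein machines, and 60 genes that encode parts of them were followed in mouse hematopoietic stem cells (HSCs) divided by the amount of a histone-GFP label that remained. The genes were taken by symbol from a list of spindle, kinetochore, checkpoint, motor and cytokinesis genes, and no threshold on their values was applied. The list was, however, chosen with earlier results of these data known. All 60 were found among the 31298 gene symbols of the expression table, and all 60 passed the filter on low values.

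The mice carried hCD34-tTA and TetO-H2BGFP, so that a tetracycline-controlled activator under human CD34 regulatory sequence drove a fusion of histone H2B with GFP. Doxycycline, 1 mg/ml in the drinking water from 2-4 months of age until harvest, shut the transgene off, after which each division dilutes the label. Every group carried both transgenes and was on doxycycline, and label enters the bins only in cells where the CD34 sequence was active. The sorting gate for HSCs was LSK (lineage-negative, with Sca-1 and Kit), CD48-, Flk2- and CD150+, and the cells were either divided into the label bins GFP4, GFP3, GFP2 and GFP1 or kept whole as Total. A higher bin number is taken to mean more label, which the labels do not state. Each of the 5 groups had 3 libraries. In every group replicate I came from 5 months of age and 12 weeks of doxycycline, replicate II from 5.5 months and 14 weeks, and replicate III from 6.5 months and 16 weeks. The labels do not say whether a library was 1 mouse or a pool, nor whether groups of one replicate number shared mice. Each p-value therefore reflects only the spread among libraries, which within a group also differed in age and doxycycline time. The number of mice behind that spread is unknown.

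Values are the authors' quantile-normalised log2 expression values, in which every library has the same distribution. Differences are therefore log2 differences on the deposited scale, and levels are compared between groups for 1 gene and never between genes. A call means an adjusted p under 0.05 in limma, fitted over 27994 genes with Benjamini-Hochberg adjustment. Read depth is unknown. Among the markers of the sort, Kit lay between 14.63 and 16.14 in all 15 libraries, Slamf1 (CD150) between 10.91 and 11.48 and Ly6a (Sca-1) between 12.67 and 14.24. Transcripts of genes whose protein the gate selects against were not absent: Cd48 lay between 7.34 and 10.31 and Flt3 (Flk2) between 9.54 and 10.38. Transcripts of antibody-producing cells separated the groups as well. The summed share of 9 immunoglobulin constant genes was 48.1 to 508 ppm of a library's summed linear values in the GFP4, GFP3 and GFP2 libraries, 3.42e+04 to 3.63e+04 ppm in GFP1 and 3.21e+04 to 3.69e+04 ppm in Total. The 12 plasma cell genes summed to 302 to 483 ppm in GFP4, GFP3 and GFP2, 4.1e+03 to 5.1e+03 ppm in GFP1 and 2.44e+03 to 5.93e+03 ppm in Total. No marker list had a gene at the lowest value of the file in all 3 libraries of a group. The part of these cells in results that involve GFP1 or Total was not tested. In bulk libraries, fewer dividing cells and less mitotic RNA per cell cannot be told apart.

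A cell enters mitosis when cyclin B and Cdk1 form an active kinase, helped by Cdc25 phosphatases and by the Polo and Aurora kinases. Kinetochores, assembled on centromeric chromatin, then capture spindle microtubules, while checkpoint proteins hold back the anaphase-promoting complex until every chromosome is attached. Anaphase begins when securin and cyclin B are destroyed and separase cuts cohesin, after which kinesins, the chromosomal passenger complex and the centralspindlin group bring about division of the cell. Most of these genes are transcribed only late in the cycle, under a complex that reads the CHR element, often with CCAAT boxes nearby. HSCs are known to be mostly quiescent.

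Promoters of 4 members are shown because they belong to the genes at both ends of the responses described below. Plk1 and Espl1 had the largest and the third largest differences between GFP1 and GFP4, Bub3 the smallest among the genes that were higher, and Pttg1 was the gene that ran the other way. Each sequence is the sense strand of RefSeq on GRCm38.p6, from 250 bases before to 50 bases after the annotated start, with CHR motifs (TTTGAA or TTCGAA) and CCAAT motifs on either strand in capitals.
Plk1: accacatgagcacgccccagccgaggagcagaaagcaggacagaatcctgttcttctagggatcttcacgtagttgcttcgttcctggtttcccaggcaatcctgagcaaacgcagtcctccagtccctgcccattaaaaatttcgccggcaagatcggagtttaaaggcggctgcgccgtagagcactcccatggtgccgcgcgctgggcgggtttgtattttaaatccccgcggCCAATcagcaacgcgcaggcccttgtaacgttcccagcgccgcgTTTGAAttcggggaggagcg
Espl1: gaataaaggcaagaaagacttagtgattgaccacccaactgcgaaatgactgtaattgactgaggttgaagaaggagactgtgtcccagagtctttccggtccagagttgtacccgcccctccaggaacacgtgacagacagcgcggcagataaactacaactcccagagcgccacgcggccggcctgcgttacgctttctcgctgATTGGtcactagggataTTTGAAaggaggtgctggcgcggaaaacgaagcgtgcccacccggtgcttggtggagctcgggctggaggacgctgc
Bub3: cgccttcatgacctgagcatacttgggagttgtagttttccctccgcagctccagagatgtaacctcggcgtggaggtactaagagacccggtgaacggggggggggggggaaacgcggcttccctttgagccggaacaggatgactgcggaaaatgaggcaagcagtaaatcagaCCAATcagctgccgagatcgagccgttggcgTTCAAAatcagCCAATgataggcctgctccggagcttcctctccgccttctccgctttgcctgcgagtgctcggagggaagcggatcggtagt
Pttg1: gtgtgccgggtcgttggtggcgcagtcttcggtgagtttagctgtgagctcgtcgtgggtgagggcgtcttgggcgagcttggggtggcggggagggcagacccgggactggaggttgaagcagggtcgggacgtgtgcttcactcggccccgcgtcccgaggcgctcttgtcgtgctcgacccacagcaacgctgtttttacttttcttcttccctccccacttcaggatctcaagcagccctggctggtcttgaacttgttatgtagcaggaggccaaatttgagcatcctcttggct
The windows lie at chr7:122159185-122159484 for Plk1, chr15:102296043-102296342 for Espl1, chr7:131560120-131560419 for Bub3 and chr11:43425932-43426231 for Pttg1, the last on the minus strand. Plk1, Espl1 and Bub3 each held both motifs, Bub3 with 2 CCAAT motifs in the one shown of its 2 RefSeq windows, and Pttg1 held neither. The Pttg1 window lies inside the GENCODE gene, which ends at 43426251 on the minus strand. The sequence upstream of that GENCODE start was therefore not searched. A promoter was found for 50 of the 60 members. Of these, 38 (76.0%) held a CHR motif, 35 (70.0%) a CCAAT motif and 32 (64.0%) both. Over 27025 genes of the RefSeq table the shares in windows of the same length were 19.4%, 37.9% and 7.7%. Over 67 of the 82 other mitosis genes described below they were 40.3%, 59.7% and 26.9%. The 9 members with neither motif were Nuf2, Kif18a, Nusap1, Ncaph, Mybl2, Tacc3, Mad2l1, Pttg1 and Birc5, and 8 of them were higher in GFP1 than in GFP4. A match is a description of the letters and not a binding site.

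Across the full range of label, from GFP4 to GFP1, 59 of the 60 members were called higher and Pttg1 was called lower (limma, adjusted over all genes). The median difference over the members was 2.2, with a range from -0.65 to 2.75, and 42 members differed by more than 2. In the same comparison 9.27% of all tested genes were called higher and 10.3% lower, and the median difference over all genes was -0.07. Markers of other cells were called higher in it as well: 9 of 9 immunoglobulin constant genes, 11 of 12 plasma cell genes, 8 of 10 B cell genes, 7 of 10 megakaryocyte and platelet genes (median 2.04), 5 of 10 erythroid genes (median 0.82) and 3 of 10 T and NK cell genes. Of the 10 macrophage and 10 neutrophil genes none was called. The 3 GFP1 libraries lay above all 3 GFP4 libraries for 59 members, against 15.1% of all genes, and below them for Pttg1, against 17.6% of all genes. For 59 members the means stood in the order GFP4, GFP3, GFP2, GFP1 from lowest to highest. The summed share of the 60 genes was 1872 to 2388 ppm in the GFP4 libraries, 2602 to 4555 ppm in GFP3, 4019 to 5771 ppm in GFP2, 7255 to 8508 ppm in GFP1 and 5109 to 6059 ppm in Total.

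**Figure D1:**
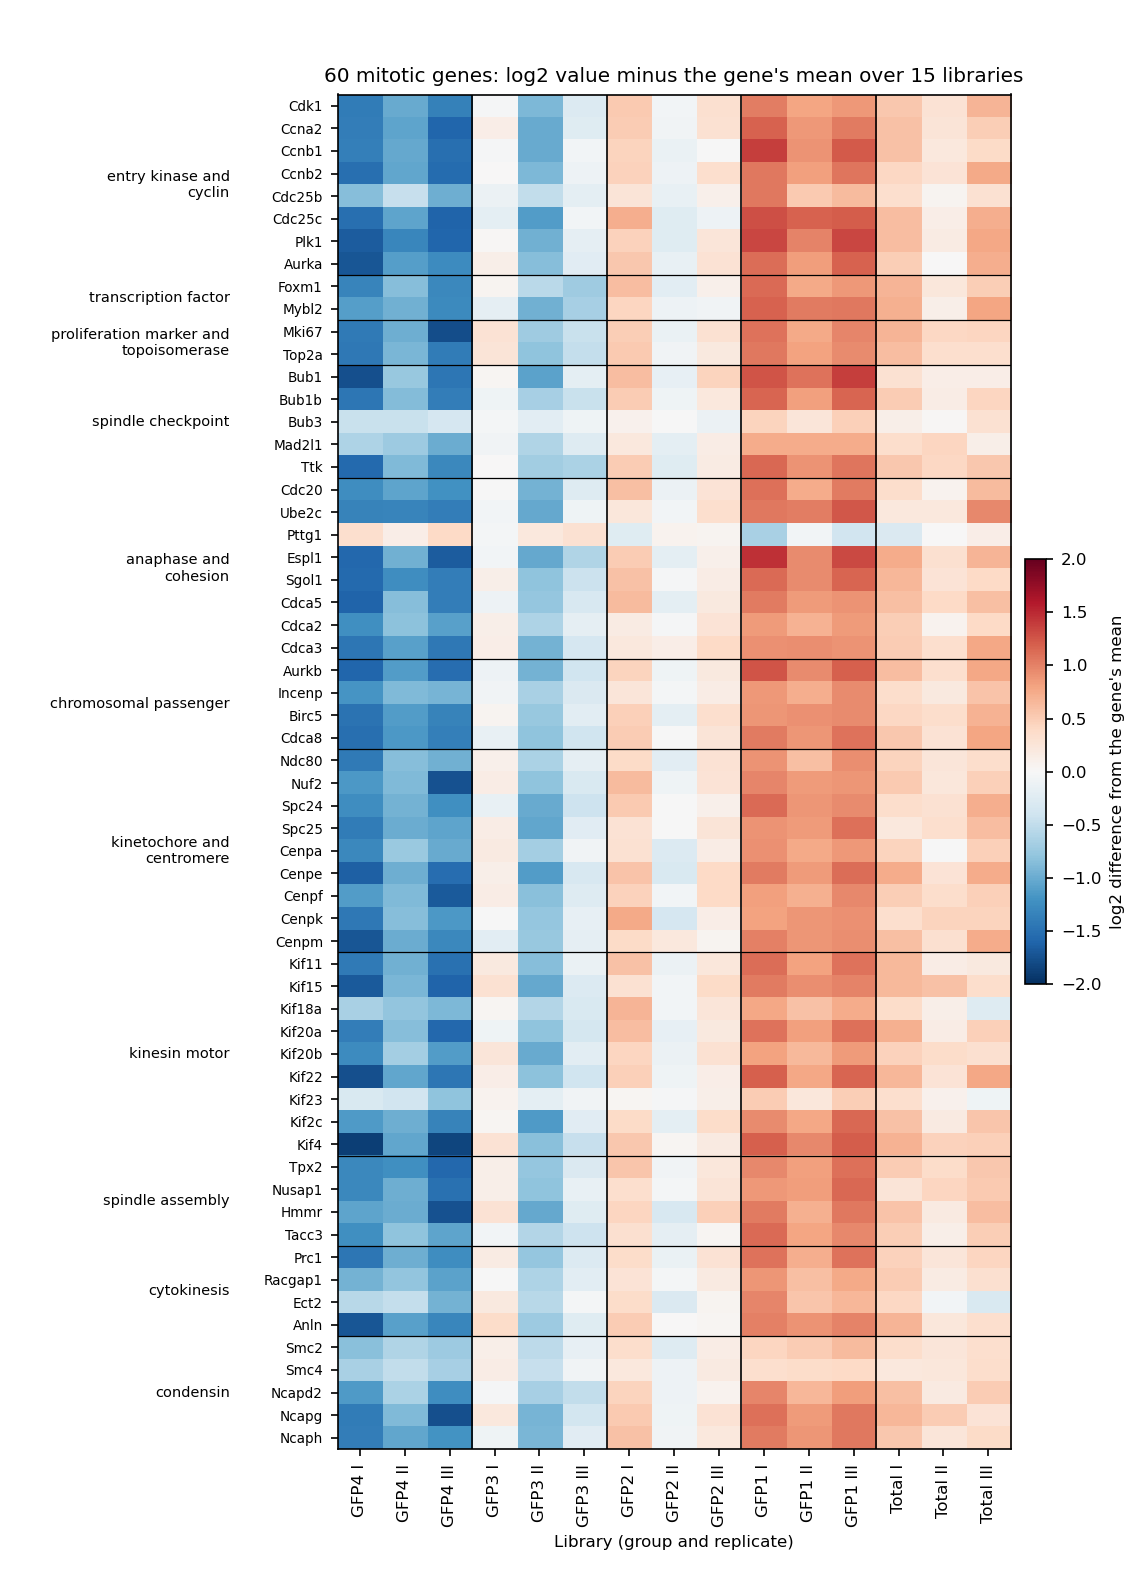
Each row is 1 of the 60 members, grouped by role, and each column 1 of the 15 libraries; colour is the log2 value minus the gene's mean over the libraries. GFP4 is below and GFP1 above the mean for 59 genes, and Pttg1 in the anaphase group has the colours the other way round.

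The kinases and cyclins that start mitosis were all higher in GFP1 than in GFP4, 8 of 8, with a median difference of 2.39. Library values are given in the order of replicates I, II and III. Plk1, the Polo-like kinase that acts at entry, at the centrosome and in cytokinesis, had library values of 8.91, 9.26 and 8.98 in GFP4, 10.59, 9.61 and 10.39 in GFP3, 11.03, 10.33 and 10.82 in GFP2, 11.91, 11.57 and 11.91 in GFP1 and 11.19, 10.73 and 11.34 in Total. No GFP3 library reached down into GFP4 and no GFP2 library reached up into GFP1, whereas GFP2 and GFP3 overlapped. The difference between GFP1 and GFP4 was 2.75, SE 0.24, adjusted p = 1.58e-06, or 6.73-fold on the deposited scale. Ccnb1, cyclin B1, read 10.57, 10.92 and 10.43 in GFP4, 11.91, 10.94 and 11.88 in GFP3, 12.38, 11.81 and 11.94 in GFP2, 13.32, 12.84 and 13.16 in GFP1 and 12.52, 12.15 and 12.33 in Total. The GFP1 libraries stood clear of every other library, and GFP1 exceeded GFP4 by 2.47, SE 0.25, adjusted p = 1.67e-05. Ccnb1 has several pseudogenes of near-identical sequence, such as Ccnb1-ps at 99.2% over 1287 bases, and reads could be divided among them differently. Ccnb1-ps was not among the gene symbols of the expression table. The copies Gm12856 and Gm4870 were, with mean log2 values of 3.17 and 1.08 over the 15 libraries. Cdk1, the kinase partner of cyclin B, had values of 10.35, 10.75 and 10.41 in GFP4, 11.73, 10.85 and 11.48 in GFP3, 12.28, 11.70 and 12.07 in GFP2, 12.78, 12.54 and 12.63 in GFP1 and 12.29, 12.04 and 12.44 in Total. Its GFP1 and GFP4 means differed by 2.15, SE 0.2, adjusted p = 2.36e-06. Cdc25c, the phosphatase that removes the inhibitory phosphates from Cdk1, read 7.22, 7.67 and 7.12 in GFP4, 8.53, 7.61 and 8.68 in GFP3, 9.45, 8.48 and 8.63 in GFP2, 10.01, 9.91 and 9.94 in GFP1 and 9.35, 8.86 and 9.46 in Total. GFP3 replicate II lay inside the GFP4 range, and the 3 GFP1 libraries differed from each other by little. GFP1 was above GFP4 by 2.62, SE 0.28, adjusted p = 1.71e-06.

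The transcription factors known to drive this programme were both called. Foxm1 was higher in GFP1 than in GFP4 by 2.07, SE 0.23, adjusted p = 1.04e-05, and Mybl2 (B-Myb), by 2.20, SE 0.2, adjusted p = 2.95e-07. Mki67, the Ki-67 antigen used as a proliferation marker, read 11.74, 12.18 and 11.39 in GFP4, 13.44, 12.44 and 12.71 in GFP3, 13.65, 13.03 and 13.46 in GFP2, 14.25, 13.92 and 14.14 in GFP1 and 13.84, 13.57 and 13.59 in Total. GFP2 and GFP3 overlapped and GFP1 was separate from all other groups. Its GFP1 minus GFP4 difference was 2.33, SE 0.27, adjusted p = 6.51e-05, and that of Top2a, the topoisomerase that untangles sister chromosomes, was 2.18, SE 0.25, adjusted p = 5.48e-05.

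All 5 spindle checkpoint genes were higher in GFP1 than in GFP4, but their differences were unequal. Bub1, a kinase that places checkpoint proteins on the kinetochore, read 8.49, 9.49 and 8.80 in GFP4, 10.28, 9.17 and 10.04 in GFP3, 10.86, 10.07 and 10.68 in GFP2, 11.50, 11.33 and 11.62 in GFP1 and 10.55, 10.37 and 10.37 in Total. In GFP4 replicate II it was higher than in GFP3 replicate II, so those groups overlapped, and the difference between GFP1 and GFP4 was 2.56, SE 0.3, adjusted p = 3.79e-05. Bub1b (BubR1), part of the inhibitor of the anaphase-promoting complex, read 10.43, 11.01 and 10.49 in GFP4, 11.79, 11.20 and 11.42 in GFP3, 12.38, 11.79 and 12.08 in GFP2, 13.04, 12.69 and 13.03 in GFP1 and 12.38, 12.02 and 12.30 in Total. It differed by 2.28, SE 0.19, adjusted p = 6.36e-07 between GFP1 and GFP4. Ttk (Mps1), the kinase that begins checkpoint signalling, had values of 8.24, 8.91 and 8.51 in GFP4, 9.81, 9.11 and 9.17 in GFP3, 10.31, 9.56 and 9.96 in GFP2, 10.95, 10.70 and 10.87 in GFP1 and 10.34, 10.22 and 10.34 in Total. Its difference was 2.28, SE 0.2, adjusted p = 1.79e-07, with GFP4, GFP3 and GFP1 apart from each other and GFP2 overlapping GFP3. Mad2l1 (Mad2), the protein that changes shape to hold Cdc20, read 10.87, 10.76 and 10.49 in GFP4, 11.41, 10.88 and 11.23 in GFP3, 11.69, 11.29 and 11.63 in GFP2, 12.22, 12.22 and 12.23 in GFP1 and 11.83, 11.91 and 11.60 in Total. GFP1 exceeded GFP4 by 1.52, SE 0.14, adjusted p = 1.59e-07, and the 3 GFP1 libraries were nearly equal. Bub3, the platform that brings Bub1 and BubR1 to the kinetochore, read 12.32, 12.32 and 12.43 in GFP4, 12.72, 12.55 and 12.68 in GFP3, 12.85, 12.76 and 12.65 in GFP2, 13.21, 13.01 and 13.25 in GFP1 and 12.88, 12.79 and 13.07 in Total. The values moved through a narrow range, with a difference of 0.80, SE 0.094, adjusted p = 3.2e-06, 1.74-fold, the smallest of the 59 genes that were higher.

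Of the 8 anaphase and cohesion genes, 7 were higher in GFP1 than in GFP4 and 1 was lower. Espl1, separase, the protease that cuts cohesin, read 9.26, 9.86 and 9.16 in GFP4, 10.77, 9.80 and 10.22 in GFP3, 11.34, 10.63 and 10.93 in GFP2, 12.29, 11.78 and 12.15 in GFP1 and 11.57, 11.15 and 11.50 in Total. Only GFP3 replicate II fell within the GFP4 range, and GFP1 exceeded GFP4 by 2.65, SE 0.26, adjusted p = 7.88e-06, 6.28-fold. Pttg1 encodes securin, which holds separase inactive until anaphase, and it read 10.73, 10.52 and 10.78 in GFP4, 10.35, 10.60 and 10.69 in GFP3, 10.14, 10.46 and 10.44 in GFP2, 9.74, 10.33 and 10.01 in GFP1 and 10.09, 10.40 and 10.52 in Total. Its means went down from GFP4 to GFP1, the neighbouring bins overlapped, and the GFP1 minus GFP4 difference was -0.65, SE 0.16, adjusted p = 0.00447. The call held in every alternative that was run on this comparison, and the Total values of Pttg1 overlapped those of GFP3, GFP2 and GFP1. No transcript of another gene matched Pttg1 closely in the annotation (at least 90% identity over 300 bases). Cdc20, the activator of the anaphase-promoting complex, and Ube2c, its ubiquitin-conjugating partner, were higher in GFP1 than in GFP4 by 2.13, SE 0.23, adjusted p = 1.96e-05 and 2.45, SE 0.25, adjusted p = 1.09e-05. Reads of Ube2c could be shared with the pseudogene Gm8956, at 93.8% over 483 bases and a mean log2 value of 8.45. Exons of Tnnc2 overlap 22.8% of the Ube2c exon bases.

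**Figure D2:**
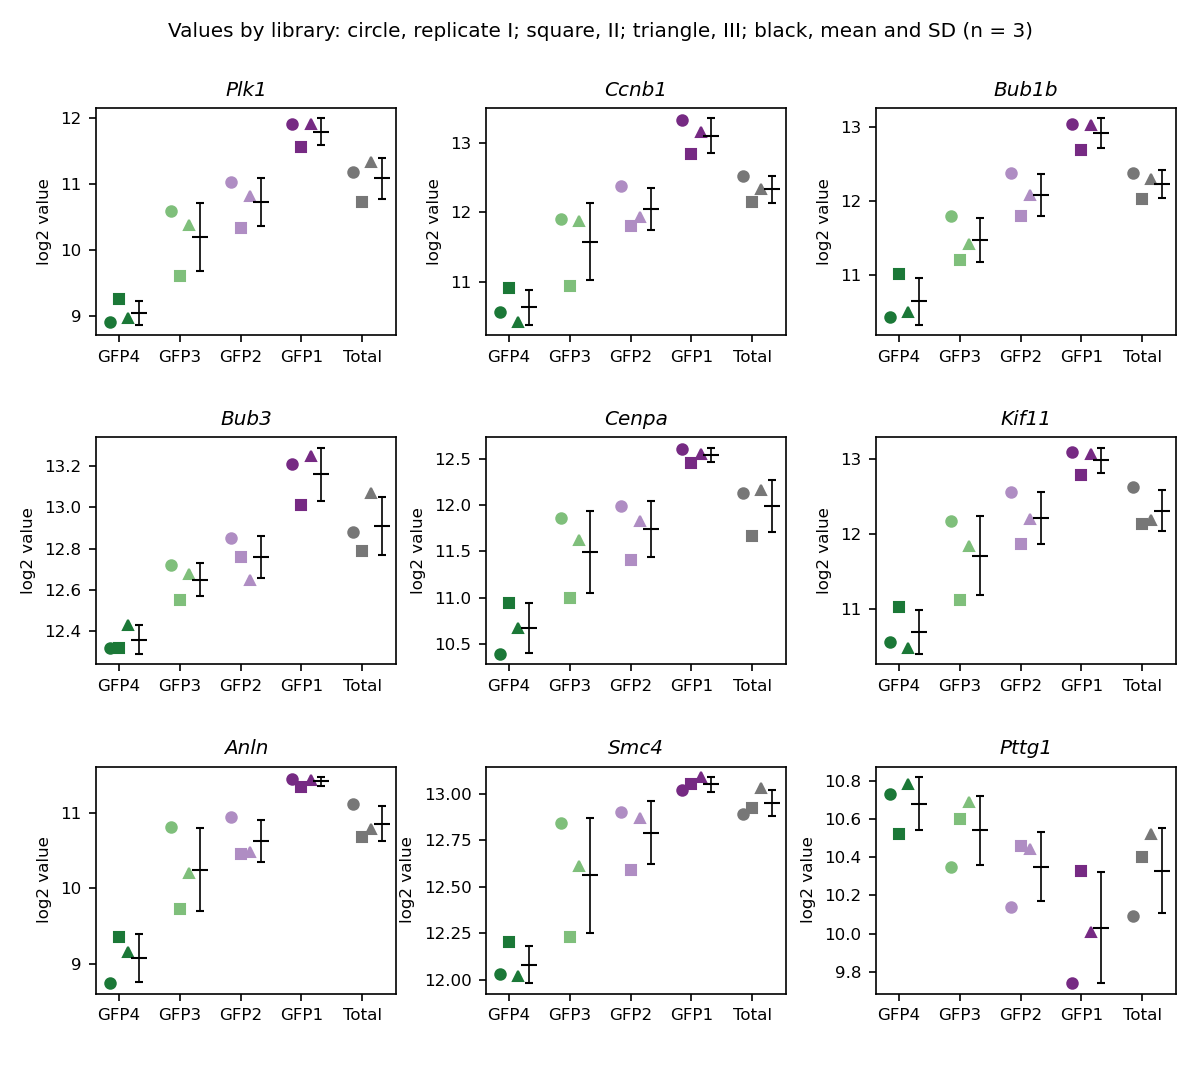
Log2 values of 9 members in each library, with the replicate shown by symbol and the group mean and SD (n = 3) in black; each panel has its own axis. Plk1, Ccnb1, Bub1b, Cenpa, Kif11 and Anln share 1 shape, Bub3 and Smc4 span a narrower range, and Pttg1 goes down from GFP4 to GFP1.

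The chromosomal passenger complex, in which Aurora B kinase is carried by Incenp, survivin and borealin, was higher in GFP1 for all 4 genes. Aurkb (Aurora B) read 9.60, 10.07 and 9.66 in GFP4, 11.08, 10.25 and 10.79 in GFP3, 11.64, 11.10 and 11.38 in GFP2, 12.44, 12.14 and 12.39 in GFP1 and 11.80, 11.52 and 11.96 in Total. The 4 bins did not overlap at any step, and GFP1 exceeded GFP4 by 2.55, SE 0.2, adjusted p = 1.95e-07. Cdca8 (borealin) read 9.81, 10.18 and 9.96 in GFP4, 11.18, 10.52 and 10.92 in GFP3, 11.83, 11.31 and 11.58 in GFP2, 12.36, 12.21 and 12.41 in GFP1 and 11.86, 11.61 and 12.11 in Total. Its bins were apart at every step as well, and its difference was 2.34, SE 0.17, adjusted p = 2.48e-08. Birc5 (survivin) and Incenp differed by 2.23, SE 0.19, adjusted p = 5.56e-07 and 1.85, SE 0.14, adjusted p = 1.5e-08.

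All 9 kinetochore and centromere genes were higher in GFP1 than in GFP4, within a narrow span of 1.87 to 2.38. Ndc80 (Hec1), the main microtubule-binding protein of the kinetochore, read 8.90, 9.47 and 9.36 in GFP4, 10.41, 9.68 and 10.14 in GFP3, 10.70, 10.10 and 10.60 in GFP2, 11.21, 10.91 and 11.24 in GFP1 and 10.76, 10.56 and 10.67 in Total. It differed by 1.87, SE 0.19, adjusted p = 1.07e-06 between GFP1 and GFP4. Spc24, at the inner end of the same complex, read 9.91, 10.21 and 9.92 in GFP4, 11.01, 10.14 and 10.73 in GFP3, 11.68, 11.15 and 11.26 in GFP2, 12.28, 12.03 and 12.10 in GFP1 and 11.51, 11.46 and 11.88 in Total. Its GFP3 and GFP2 libraries did not overlap, whereas GFP3 replicate II fell within GFP4, and the middle-step difference of 0.74, SE 0.19, adjusted p = 0.472 was the largest of the members. Cenpa, the histone variant that marks the centromere, read 10.39, 10.94 and 10.67 in GFP4, 11.86, 11.00 and 11.62 in GFP3, 11.99, 11.41 and 11.83 in GFP2, 12.60, 12.45 and 12.55 in GFP1 and 12.13, 11.67 and 12.16 in Total. GFP2 and GFP3 overlapped, and GFP1 was above GFP4 by 1.87, SE 0.22, adjusted p = 2.56e-05. Cenpe, a kinetochore motor, read 8.95, 9.61 and 9.06 in GFP4, 10.70, 9.47 and 10.27 in GFP3, 11.16, 10.28 and 10.98 in GFP2, 11.62, 11.44 and 11.70 in GFP1 and 11.33, 10.86 and 11.33 in Total. GFP3 ran from inside the GFP4 range to inside the GFP2 range, and the GFP1 minus GFP4 difference was 2.38, SE 0.31, adjusted p = 0.000117.

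Among the 9 mitotic kinesins all were higher in GFP1 than in GFP4, with a median of 2.27. Kif11 (Eg5), which pushes the spindle poles apart, read 10.56, 11.02 and 10.48 in GFP4, 12.17, 11.12 and 11.84 in GFP3, 12.56, 11.86 and 12.20 in GFP2, 13.09, 12.78 and 13.07 in GFP1 and 12.62, 12.13 and 12.18 in Total. Its difference was 2.30, SE 0.26, adjusted p = 5.04e-05. Kif4, a chromosome-bound kinesin, read 8.55, 9.39 and 8.60 in GFP4, 10.73, 9.60 and 9.97 in GFP3, 10.98, 10.48 and 10.61 in GFP2, 11.63, 11.40 and 11.64 in GFP1 and 11.13, 10.89 and 10.91 in Total. GFP4 replicates I and III were the lowest, and GFP1 exceeded GFP4 by 2.71, SE 0.27, adjusted p = 5.32e-06, 6.54-fold. Kif20a, a kinesin of the central spindle, read 9.63, 10.16 and 9.44 in GFP4, 10.92, 10.20 and 10.66 in GFP3, 11.63, 10.85 and 11.20 in GFP2, 12.10, 11.83 and 12.11 in GFP1 and 11.72, 11.16 and 11.49 in Total. The difference was 2.27, SE 0.24, adjusted p = 9.98e-06; 29.3% of its exon bases are shared with Cdc23, and the library kit does not mark strand. Kif23, the kinesin of centralspindlin, read 10.98, 10.90 and 10.47 in GFP4, 11.35, 11.09 and 11.21 in GFP3, 11.32, 11.26 and 11.40 in GFP2, 11.79, 11.51 and 11.77 in GFP1 and 11.62, 11.37 and 11.19 in Total. Its GFP1 and GFP4 groups were apart but differed by only 0.91, SE 0.14, adjusted p = 5.18e-05, 1.88-fold, and Total overlapped GFP1. Racgap1, the partner of Kif23 in centralspindlin, differed by 1.67, SE 0.14, adjusted p = 4.7e-08.

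All 4 cytokinesis genes and all 5 condensin genes were higher in GFP1 than in GFP4, with medians of 1.93 and 1.83. Anln (anillin), a scaffold of the contractile ring, read 8.74, 9.36 and 9.15 in GFP4, 10.82, 9.72 and 10.21 in GFP3, 10.95, 10.46 and 10.48 in GFP2, 11.45, 11.35 and 11.44 in GFP1 and 11.12, 10.68 and 10.79 in Total. GFP3 replicate I lay among the GFP2 values, and the difference between GFP1 and GFP4 was 2.33, SE 0.23, adjusted p = 3.34e-06. Prc1, which bundles the central spindle, read 10.52, 10.99 and 10.72 in GFP4, 12.14, 11.19 and 11.70 in GFP3, 12.33, 11.84 and 12.26 in GFP2, 13.05, 12.69 and 13.06 in GFP1 and 12.43, 12.21 and 12.40 in Total. It differed by 2.19, SE 0.21, adjusted p = 3.86e-06. Ect2, which is needed for cleavage of the dividing cell, read 9.80, 9.89 and 9.42 in GFP4, 10.55, 9.80 and 10.32 in GFP3, 10.73, 10.07 and 10.42 in GFP2, 11.33, 10.92 and 11.02 in GFP1 and 10.77, 10.30 and 10.05 in Total. GFP3 and GFP4 overlapped, as did GFP3 and GFP2, and GFP1 exceeded GFP4 by 1.38, SE 0.22, adjusted p = 0.000254. Ncapg, a condensin I subunit, read 9.56, 10.08 and 9.20 in GFP4, 11.17, 10.03 and 10.60 in GFP3, 11.48, 10.87 and 11.25 in GFP2, 12.06, 11.81 and 12.02 in GFP1 and 11.62, 11.47 and 11.23 in Total. Its difference was 2.35, SE 0.28, adjusted p = 4.53e-05. Smc4, a core subunit shared by both condensins, read 12.03, 12.20 and 12.02 in GFP4, 12.84, 12.23 and 12.61 in GFP3, 12.90, 12.59 and 12.87 in GFP2, 13.02, 13.05 and 13.09 in GFP1 and 12.89, 12.92 and 13.03 in Total. GFP2 came close to GFP1, and the difference of 0.97, SE 0.12, adjusted p = 7.15e-06 was among the 4 smallest. The 4 spindle assembly genes differed by 1.99 to 2.32, with Tpx2 the largest at 2.32, SE 0.19, adjusted p = 3.12e-07.

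The members not yet named were higher in GFP1 than in GFP4 as well, each with an adjusted p under 0.05 in limma. At entry, cyclin A2 (Ccna2) differed by 2.37, cyclin B2 (Ccnb2) by 2.35, the phosphatase Cdc25b by 1.50 and Aurora A (Aurka), the centrosomal Aurora kinase, by 2.40. Among genes of cohesion and anaphase, shugoshin (Sgol1), which protects centromeric cohesin, differed by 2.47, sororin (Cdca5), which stabilises cohesin, by 2.21, Cdca2, a phosphatase-targeting protein, by 1.85 and Cdca3 by 2.24. At the kinetochore, Nuf2 and Spc25, subunits of the Ndc80 complex, differed by 2.16 and 2.10, the outer protein Cenpf by 2.05, and the inner proteins Cenpk and Cenpm by 2.00 and 2.28. The remaining kinesins were Kif15 at 2.39, the length regulator Kif18a at 1.48, Kif20b at 1.79, the chromosome-arm motor Kif22 at 2.45 and the depolymerase Kif2c at 2.11. Of the spindle assembly genes, Nusap1, Hmmr and Tacc3 differed by 2.20, 2.20 and 1.99. The remaining condensin genes were Smc2 at 1.24, Ncapd2 at 1.83 and Ncaph at 2.21. Kif18a, Smc2 and Cdc25b were the smaller ones of this group, and each was still called.

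The difference was spread over 3 steps. In the first, from GFP4 to GFP3, 59 members were positive with a median of 0.86 and a range of -0.13 to 1.25, and none passed the adjusted test, where 0.0429% of all genes were called higher. The lowest adjusted p among the members was 0.0712. At an unadjusted p under 0.05 the count was 59 of 60, against 3.34% of all genes. All 3 GFP3 libraries were above all 3 GFP4 libraries for 45 members, against 5.55% of all genes. Kif4 (1.25, SE 0.27, adjusted p = 0.136), Anln (1.16, SE 0.23, adjusted p = 0.103) and Plk1 (1.15, SE 0.24, adjusted p = 0.136) had the largest first-step differences. GFP3 replicate II decided this count. The GFP3 libraries I, II and III lay above the GFP4 mean by a median of 1.24, 0.37 and 0.95. Without replicate II 39 members were called, and the share of all genes called in that fit is not given here.

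In the middle step, from GFP3 to GFP2, 59 members were positive with a median of 0.56, none was called, and 0% of all genes were called higher. At an unadjusted p under 0.05, 40 members were higher, against 2.93% of all genes. The libraries did not overlap for 9 members, against 5.56% of all genes. Bub1 (0.71, SE 0.3, adjusted p = 0.86), Cdca8 (0.70, SE 0.17, adjusted p = 0.38) and Spc24 were the largest, and Bub3 (0.11, SE 0.094, adjusted p = 1) and Kif23 (0.11, SE 0.14, adjusted p = 1) were the smallest among the positive ones.

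In the last step, from GFP2 to GFP1, 28 members were called higher with a median over the 60 of 0.75, against 3.06% of all genes. The groups were apart for 58 members, against 10.0% of all genes. Called genes were 4 of 4 of the chromosomal passenger complex, 4 of 5 checkpoint genes (all but Bub1, adjusted p = 0.0851 in limma), 5 of 8 anaphase and cohesion genes, 4 of 8 entry kinases and cyclins, 4 of 9 kinetochore genes, 3 of 4 spindle assembly genes, 2 of 4 cytokinesis genes, Mybl2, and Ncaph among the condensins. None of the 9 kinesins was called, although all 9 were positive with a median of 0.77, and adjusted p-values ran from 0.0549 to 0.271. Mki67 and Top2a were not called either, at 0.72 each. Same-numbered GFP2 and GFP1 libraries deviated together, and with the replicate number as a block 36 members were called, among them the kinesins Kif20a, Kif22 and Kif2c, while Cdca5 was no longer called (adjusted p = 0.0505 in limma). Whether roles differed in this step was not tested. The largest differences were those of Espl1 (1.11, SE 0.26, adjusted p = 0.022), Cdc25c (1.10, SE 0.28, adjusted p = 0.021) and Plk1 (1.07, SE 0.24, adjusted p = 0.0157), and Smc4 had the smallest positive one (0.27, SE 0.12, adjusted p = 0.245). The count of 28 was sensitive to single libraries: it was 6 without GFP2 replicate II or without GFP1 replicate I, 9 without GFP1 replicate III, 11 without GFP2 replicate III, 43 without GFP3 replicate I and 46 without GFP3 replicate II. In the same step 9 of 9 immunoglobulin constant genes, 9 of 12 plasma cell genes and 8 of 10 B cell genes were called higher. Other lists moved too. The 10 megakaryocyte and platelet genes summed to 1.55e+03 to 1.72e+03 ppm in GFP2 and 1.76e+03 to 2.54e+03 ppm in GFP1. The 10 HSC genes summed to 3.65e+03 to 3.84e+03 ppm in GFP2 and 2.44e+03 to 2.53e+03 ppm in GFP1. The erythroid gene Gata1 read 9.86, 8.96 and 9.27 in GFP2 and 12.03, 11.41 and 11.78 in GFP1, whereas Car2 was lower in GFP1. The part of all these genes in the members' differences was not tested. With immunoglobulin genes removed and the normalization repeated, 29 members were called.

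**Figure D3:**
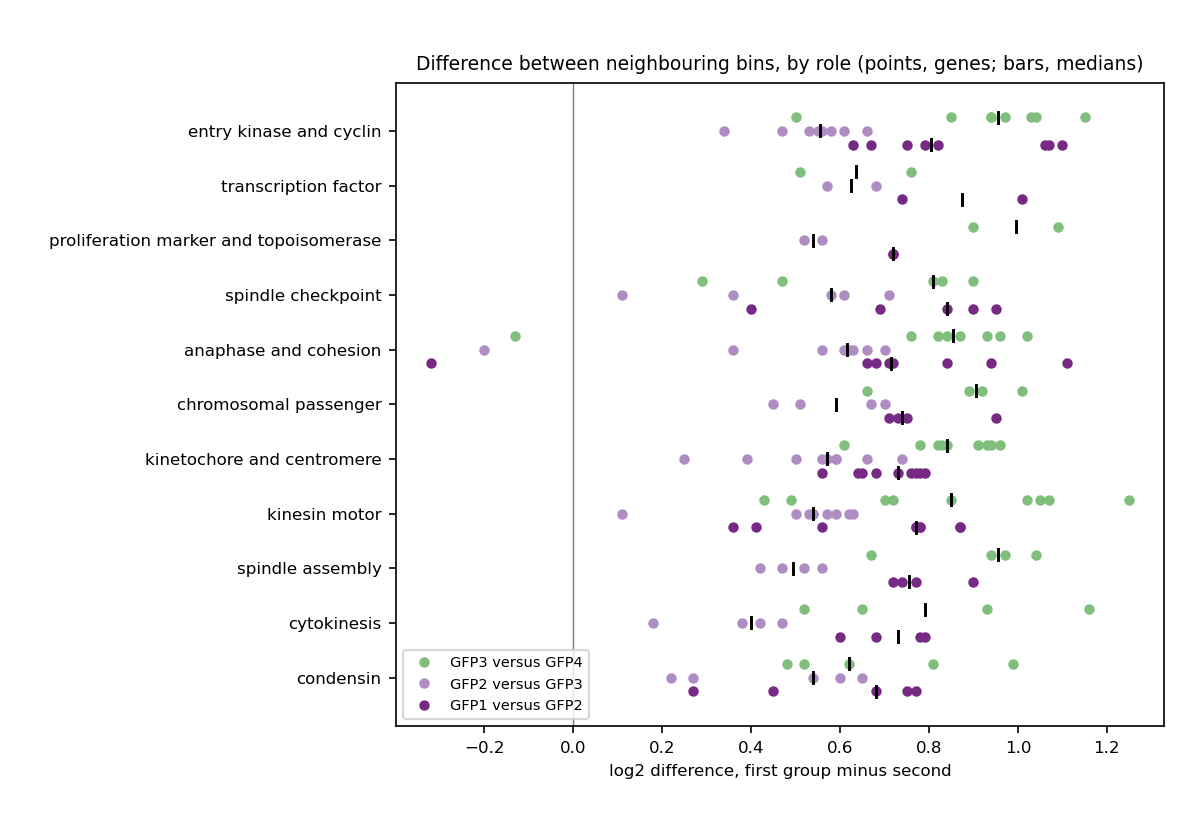
Points are members, arranged by role, and the horizontal axis is the log2 difference between neighbouring bins, GFP3 minus GFP4, GFP2 minus GFP3 and GFP1 minus GFP2; bars are medians. The middle step is the smallest of the 3 for 54 members with all libraries and for 21 without GFP3 replicate I, and Pttg1 is the point left of 0.

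Of the whole rise from GFP4 to GFP1, the first step held a median of 39.6% over the 59 genes, the middle step 24.8% and the last 34.8%. The first step was the largest for 41 members, the last for 18 and the middle for 1. For the 9 kinesins the medians were 42.8%, 22.5% and 33.7%, and for the 5 checkpoint genes 35.4%, 25.3% and 39.3%. This split rested on single libraries. Without GFP3 replicate I the median steps were 0.67, 0.77 and 0.75, and the first step was the largest for 10 members, the middle for 25 and the last for 25. Without GFP3 replicate II they were 1.09, 0.30 and 0.75, and the first was the largest for 53. Without GFP2 replicate I the last step was the largest for 33 members and the first for 27, and without GFP2 replicate II the middle step was the largest for 8 and the smallest for 21. The difference between steps was also tested gene by gene. No member passed for the middle against the first step, where 0% of all genes did, nor for the last against the middle step, where 0.150% of all genes did. Over the first and middle steps together the counts were higher. Between GFP2 and GFP4, 58 members were called higher with a median of 1.46, against 2.69% of all genes. The immunoglobulin constant genes summed to 48.1 to 100 ppm in the GFP2 libraries and 64.3 to 508 ppm in GFP4. In that comparison 4 of 10 megakaryocyte and platelet genes were called higher and 1 lower, 2 of 10 erythroid genes were called higher, and their part was not tested. The exceptions were Ect2, with an adjusted p of 0.1 in limma, and Pttg1 (-0.33, SE 0.16, adjusted p = 0.344). A fit to the GFP2, GFP3 and GFP4 libraries alone called 51.

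Total lay above GFP2 and below GFP1 by mean for 56 members. For Pttg1, whose order was reversed, the Total mean of 10.33 lay between 10.35 in GFP2 and 10.03 in GFP1. Against Total, 58 members were called lower in GFP4, with a median of -1.66 and 5.29% of all genes called lower. In GFP3, 18 were called lower with a median of -0.78, against 1.47% of all genes. Among these 18 were all 4 genes of the chromosomal passenger complex, with Aurkb at -1.05, SE 0.2, adjusted p = 0.0111, and Mybl2 at -1.14, SE 0.2, adjusted p = 0.00458, but none of the 9 kinesins. With the replicate block 25 were called lower, Kif2c among them. The count of 18 went from 1 (the 2 groups fitted alone) to 40 (without GFP3 replicate I), and was 11 with array weights and 4, 6, 5 and 6 without GFP3 replicate II, GFP3 replicate III, Total replicate III and Total replicate I. In GFP2, no member was called against Total, at a median of -0.24 with 56 members negative, and 0.318% of all genes were called lower. In GFP1, no member was called higher than Total, with 0.318% of all genes called. The median was 0.51, 59 members were positive, and 39 had an unadjusted p under 0.05, against 4.89% of all genes. With the replicate number as a block, since same-numbered GFP1 and Total libraries deviated together, 5 members were called higher: Ect2, Kif18a, Tacc3, Incenp and Sgol1 (adjusted p from 0.0179 to 0.0491 in limma). GFP1 lay above all Total libraries for 55 members, against 6.43% of all genes, and Bub1 had the largest difference (1.06, SE 0.3, adjusted p = 0.125).

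**Figure D4:**
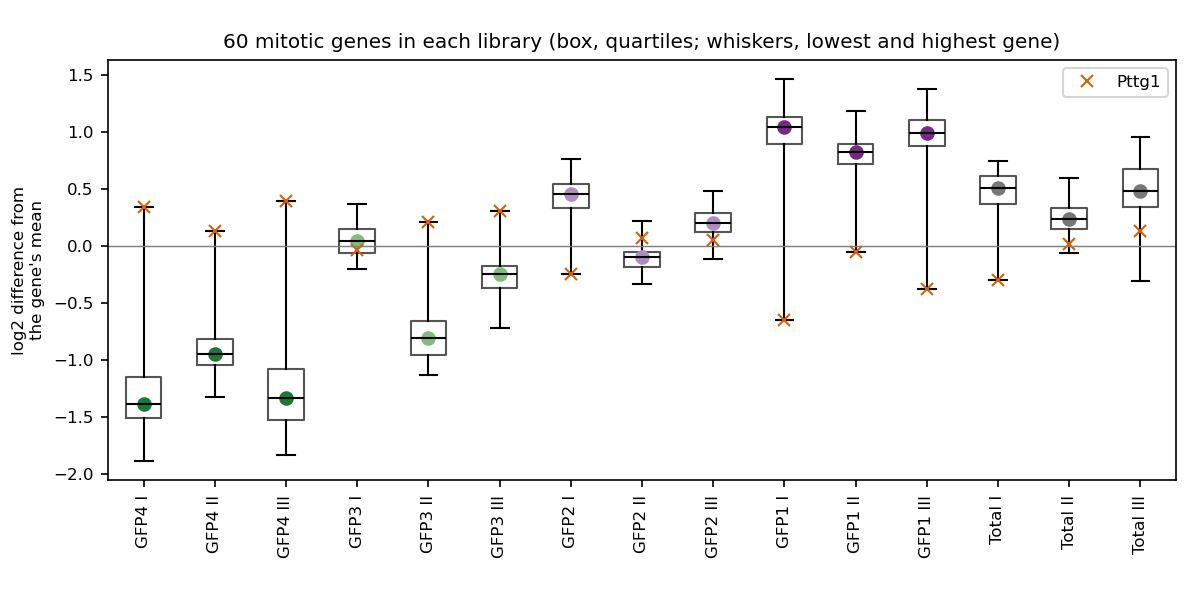
For each library, the box gives the quartiles and the whiskers the lowest and highest of the 60 members, as the log2 value minus the gene's mean over the 15 libraries; crosses mark Pttg1. Replicate II is the lowest of its group in GFP3, GFP2, GFP1 and Total, at medians of -0.81, -0.10, 0.82 and 0.24, and the highest in GFP4 at -0.95.

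The members also varied together between libraries of a group. Replicate II was the lowest of the 3 libraries for 58 members in GFP3, 57 in GFP2, 53 in GFP1 and 46 in Total, and in GFP4 it was the highest for 55. GFP3 replicate I was the highest for 57 members. The range between the 3 libraries of a group had a median over members of 0.88 in GFP3, 0.57 in GFP2, 0.51 in GFP4, 0.40 in Total and 0.25 in GFP1. Because age and weeks of doxycycline differ between replicate numbers, and a library is the only sample of its number in a group, these cannot be told apart from differences between libraries. Genes that share a library are not independent replicates.

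A further 82 mitosis genes outside the 60 were also examined. They are a list chosen with earlier results of these data known. It holds some but not all of the remaining components of the same machines. In GFP1 against GFP4, 61 were called higher, 3 lower and 18 were not called, and the median was 1.3. Of all tested genes, 9.27% were called higher and 10.3% lower. By smallest p the leaders were Trip13, an ATPase that acts on the checkpoint complex (1.81, SE 0.14, adjusted p = 1.92e-08), Ska3 of the kinetochore-microtubule coupler (2.21, SE 0.18, adjusted p = 4.36e-08), the cytokinesis kinase Cit (2.03, SE 0.17, adjusted p = 5.85e-08), the centromere protein Cenpw (1.79, SE 0.15, adjusted p = 8.35e-08) and the centrosome kinase Nek2 (2.38, SE 0.2, adjusted p = 1.09e-07). Numa1, a spindle pole protein (-0.50, SE 0.097, adjusted p = 0.000785), the cohesin subunit Smc1a (-0.29, SE 0.076, adjusted p = 0.0081) and the phosphatase inhibitor Ensa (-0.25, SE 0.081, adjusted p = 0.0389) were the 3 called lower. The genes not called included Rad21, Stag1, Stag2 and Wapl of the cohesin ring and its regulators, with Rad21 at 0.36, SE 0.13, adjusted p = 0.0503. Also not called were Anapc1, Anapc2, Anapc4, Anapc10, Anapc11, Cdc16, Cdc23 and Cdc26, subunits of the anaphase-promoting complex, with Anapc2 at -0.17, SE 0.084, adjusted p = 0.195 and Cdc26 at 0.00, SE 0.098, adjusted p = 0.99. Smc3, Anapc5 and Cdc27 of the same complexes were called higher. Whether these genes differ from the members in response was not tested. In the first step, Cit alone was called (0.95, SE 0.17, adjusted p = 0.0412 in limma), where 0.0429% of all genes were called higher. In the middle step none was, where 0% of all genes were called higher. In the last step 28 were called higher, against 3.06% of all genes, and Smc1a lower (-0.27, SE 0.076, adjusted p = 0.0336 in limma).

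**Figure D5:**
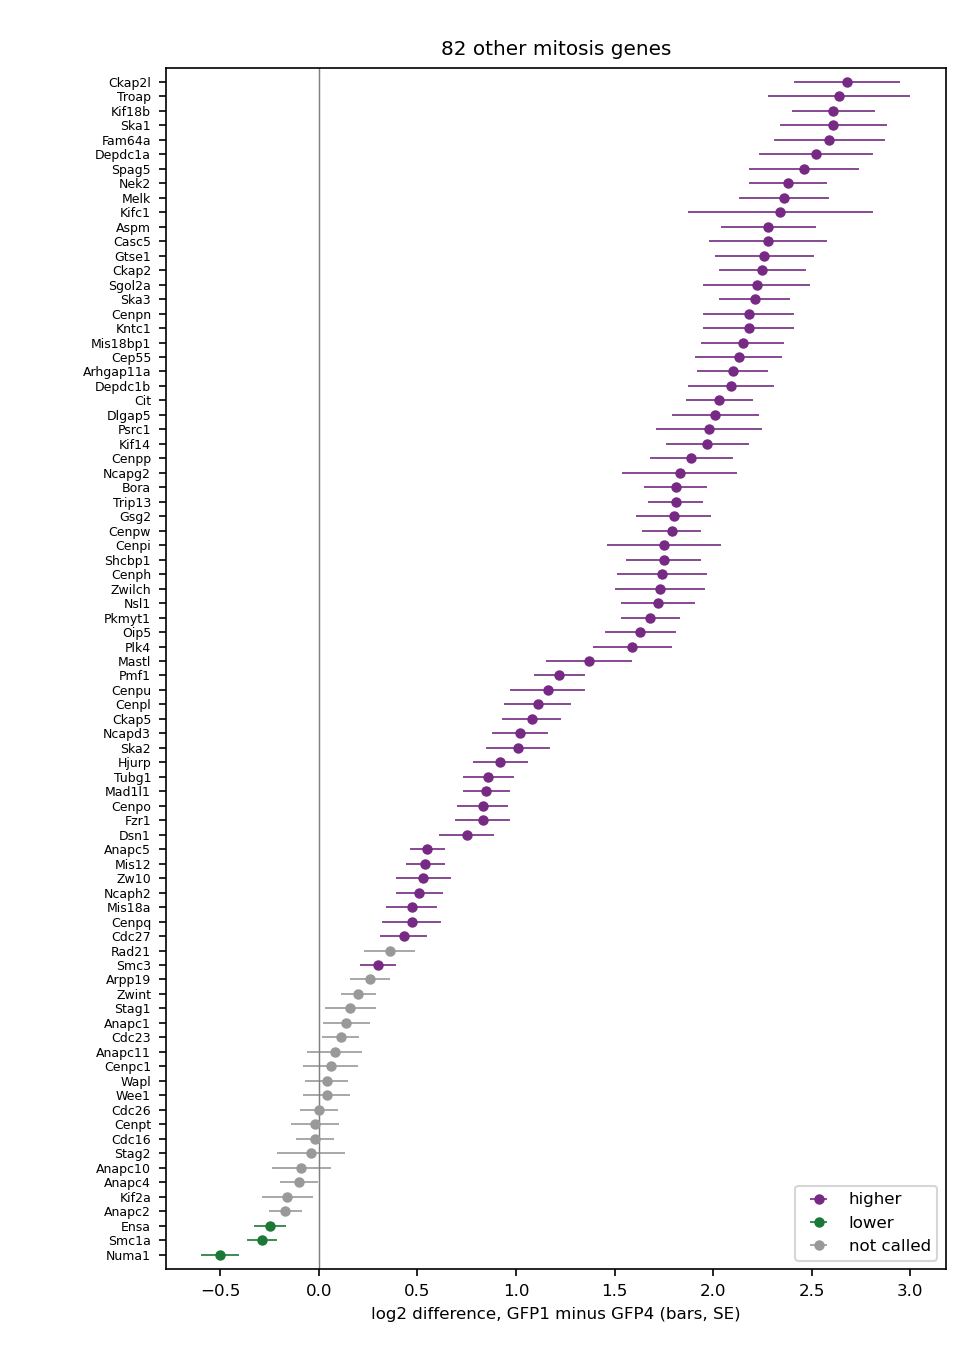
The log2 difference between GFP1 and GFP4 for 82 mitosis genes outside the 60, with bars for the SE and colours for the call. Numa1, Smc1a and Ensa are called lower, and 18 genes, among them Stag2, Wapl and Cdc26, are not called.

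S phase genes went with the mitotic ones: all 12 listed were called higher in GFP1 than in GFP4, with a median of 1.26 (limma), against 9.27% of all genes. Of 10 HSC genes 7 were called lower in the same comparison, with a median of -1.15, against 10.3% of all genes. Reads could be shared for 18 members that have a transcript of another gene at 90% identity or more over 300 bases, and 19 members have exons that overlap another gene, none over 50% of its exon bases.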

How the data were processed

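RNA of 15 sorted HSC libraries, 5 groups of 3, was amplified with SMART-Seq v4 and tagmented with Nextera XT, which does not mark strand, per the labels' protocols. The submitters' processing notes list kallisto 0.43.0 and the build GRCm38. The authors deposited log2 values, 1 per gene and library, from 0.14 to 19.12, which are quantile normalised as judged from the values. The unit before the logarithm, the gene summary and the offset were not given in the sources used here. Quantile normalisation removes differences in total RNA, so every difference is relative to the other genes.

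The filter kept 27994 of 31298 genes, those whose value on the linear scale reached 1 or more in 3 or more libraries. The log2 values were fitted with limma 3.58.1 in R 4.3.3, 1 mean per group over all 15 libraries (10 residual degrees of freedom, trend and robust settings), with Benjamini-Hochberg adjustment at 0.05. Shares in ppm are linear values relative to their library sum. The procedure was tested on simulated data for GFP1 against GFP4 only. The simulated noise was independent between genes and libraries, so it did not cover genes or libraries that deviate together. The members and lists were chosen with earlier results of these data known. Per-library values are printed for 20 listed members, for the 3 largest and 3 smallest differences in each comparison of neighbouring bins and of GFP1 against GFP4, and for members going against most. Other mitosis genes are named by smallest p, and the remaining ones named were chosen after their values were seen. Gene positions and overlaps come from GENCODE vM21, promoters from RefSeq on GRCm38.p6 (50 of 60 symbols matched), and similar transcripts from BLAST 2.17.0. Figures were drawn with matplotlib 3.10.9. No 2 libraries were identical. Over 10337 genes, all 3 same-numbered pairs of libraries deviated together from their group means (correlation over 0.1) for GFP1 with Total (0.41 to 0.587), GFP1 with GFP2 (0.28 to 0.333), GFP1 with GFP3 (0.187 to 0.381), GFP3 with Total (0.166 to 0.36) and GFP2 with Total (0.201 to 0.228), so the numbers were taken to pair these groups; this comes from the data and from the shared age and doxycycline time. For GFP3 with GFP2 and for GFP4 with any group they did not. Alternatives tried were 2 renormalizations, 3 filters or offsets, a replicate block, array weights, fits to fewer groups, the omission of each library and, added after the data were seen, a median-of-ratios rescaling.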

Additional observations from a re-analysis of the deposited data

How the results depend on the processing

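The 59 higher calls and the Pttg1 lower call between GFP1 and GFP4 kept direction and call in every alternative run on that comparison, and the count of members higher in GFP2 than in GFP4 stayed between 51 and 59. Depth is unknown, and 3 libraries a group limit precision. With a replicate block, 36 members were higher in GFP1 than in GFP2, 9 in GFP3 than in GFP4 and 5 in GFP1 than in Total. Same-numbered GFP3 and GFP4 libraries share age and doxycycline time, but their deviations correlated at only -0.101 to 0.201. The block also called Ect2 higher in GFP2 than in GFP4. Fitting only the compared groups gave 48 for GFP1 against GFP2 and 1 for GFP1 against Total. Leaving out 1 library at a time, the counts ran from 0 to 39 for GFP3 against GFP4, from 6 to 46 for GFP1 against GFP2 and from 0 to 3 for GFP1 against Total. The shares of all genes called in these alternative fits are not given here.

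Some small uncalled differences changed sign. GFP2 minus Total for Pttg1, 0.01, became -0.01 after removing immunoglobulin genes and after median-of-ratios rescaling, and for Ect2, 0.04, it became -0.10 with array weights. Without 1 library at a time, GFP2 minus Total ranged from -0.38 to 0.01 for Aurka, -0.06 to 0.34 for Bub1, -0.27 to 0.09 for Cdc20, -0.11 to 0.12 for Pttg1, -0.32 to 0.04 for Nuf2, -0.51 to 0.03 for Cenpk, -0.28 to 0.07 for Kif11, -0.17 to 0.05 for Kif23, -0.40 to 0.00 for Hmmr, -0.13 to 0.23 for Ect2 and -0.32 to 0.01 for Ncaph. For Ect2, GFP2 minus GFP3 ranged from -0.03 to 0.35 and GFP3 minus Total from -0.31 to 0.06. The cause was not tested.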
